A study of Mus musculus with 4 samples.

Results

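The genes described here encode the proteins that license DNA for replication: the 6 subunits of the MCM helicase (Mcm2 to Mcm7), the loading factors Cdc6 and Cdt1, the Cdt1 inhibitor geminin (Gmnn), and the sliding clamp Pcna. They were taken by symbol as a list of 10 of the 20171 genes in the deposited gene table, and their 143 isoforms among 68012 in the isoform table were taken with them. No measured value entered the rule that took them, but the list was drawn up with earlier results of these data known. All 10 passed the filter on low values, as did 11682 genes in all.

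Full-length cDNA of single blastomeres was sequenced with PacBio long reads by HIT-scISOseq, a method in which each molecule carries a cell barcode and a unique molecular identifier (UMI). Oocytes were unfertilised MII eggs taken 20 hours after hCG, the hormone injected to trigger ovulation, from 6-8-week-old C57BL/6J females, and embryos came from such females mated with DBA/2NCrl males, although the strain label reads DBA/2J x C57BL/6J. The 161 cells were 10 oocytes, 9 zygotes (22 to 24 hours), 10 cells of 5 early 2-cell embryos (E2C, 30 to 32 hours), 11 of 6 late 2-cell embryos (L2C, 46 to 48 hours), 17 of 5 4-cell embryos, 26 of 4 8-cell embryos, 38 of 4 16-cell embryos, 22 cells of 32-cell embryos, 13 of early blastocysts and 5 of a mouse embryonic stem cell (mESC) line. The first 7 stages name the oocyte or embryo of each cell, which gave 43 replicates from 121 cells. For the other 3 groups no embryo is named, and only ranges and medians over cells are given.

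Values are copies per 100,000, the UMIs of a gene per 100,000 gene UMIs of its cell, averaged over the cells of an embryo, so they are shares of a cell's RNA and not amounts. Depth ran from 4985 to 389775 gene UMIs per cell, with stage medians of 195670.5 in oocytes, 246466 in zygotes and 91608.5 in E2C, 58097 in L2C and 32466 in 4-cell embryos, and 1 copy per 100,000 lay below 1 UMI in most later cells. As a check of the labels, the summed level of 7 oocyte markers was 1732 to 2405 in oocytes, 46.8 to 154 in L2C and 12.4 to 183 in 16-cell embryos, and Zp3, which encodes a coat protein of the egg, was at 15.9 to 42.1 in L2C. In mESC, where oocyte RNA should be absent, the list still summed to 54.6 to 112, with Gdf9, an oocyte growth factor, at 10.9 to 43.9. The part of such RNA in the levels below was not tested. Cumulus and granulosa cell markers summed to at most 9.81 in oocytes and at most 0.875 in L2C. Markers of the 2-cell embryo summed to medians of 11.5 in oocytes, 48.3 in zygotes, 42.2 in E2C and 6.00 in L2C.

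Licensing takes place in late mitosis and G1, when the origin recognition complex, Cdc6 and Cdt1 load rings of Mcm2 to Mcm7 onto origins. Geminin binds Cdt1 and so limits loading to once per cycle, and Pcna encircles DNA during synthesis and also marks chromatin-bound Cdt1 for destruction. Eggs store RNA of such genes for the rapid cleavage divisions, most stored RNA is lost around the 2-cell stage in the mouse, and the embryo's own genome is activated in the same period. Many licensing genes are known targets of E2F transcription factors.

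Promoters are shown for Mcm2, Mcm3, Mcm5 and Mcm6, helicase genes that did not move together. Windows from 250 bases before to 50 after the RefSeq start were at hand for 8 of the 10 genes, those of Mcm4 and Gmnn being the exceptions. The motif TTTNNCGC, an E2F-type site read on either strand (GCGNNAAA on the other, which can share letters with GGGCGG), was in 5.17% of 32851 windows of that length and in those of Cdc6, Cdt1, Mcm3, Mcm5, Mcm6 and Mcm7. It was not among the letters of the Mcm2 and Pcna windows. CCAAT was in 37.4% and GGGCGG in 35.7% of all windows, each with 6 of the 8 genes. The windows below are RefSeq sequence on GRCm38.p6, the 200 bases before the start site, 5′ to 3′ on the gene's strand, with matches to TTTNNCGC or its reverse complement in capitals. Mcm2 lies on the minus strand at chr6:88898781-88898980, Mcm5 on the plus strand at chr8:75109309-75109508, Mcm6 on the minus strand at chr1:128359706-128359905, and Mcm3 on the minus strand at chr1:20820283-20820512, where 30 bases after the start are included because the first of its 2 matches lies there, at base 20 after the start. The second, from base 39, lies beyond the bases printed. Mcm7 also had a match, but it changed little, as given below, and is not printed. The matches are a description of these letters and not evidence of binding. Whether the motif goes with the direction of change was not tested.
Mcm2: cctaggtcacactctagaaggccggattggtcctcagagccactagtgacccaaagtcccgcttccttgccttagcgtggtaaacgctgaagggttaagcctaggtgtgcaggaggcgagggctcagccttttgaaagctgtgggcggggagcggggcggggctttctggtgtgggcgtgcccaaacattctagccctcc
Mcm3: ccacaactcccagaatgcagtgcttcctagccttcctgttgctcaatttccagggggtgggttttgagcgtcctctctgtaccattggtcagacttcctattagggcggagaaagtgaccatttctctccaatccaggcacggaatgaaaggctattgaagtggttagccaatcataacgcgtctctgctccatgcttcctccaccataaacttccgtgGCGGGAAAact
Mcm5: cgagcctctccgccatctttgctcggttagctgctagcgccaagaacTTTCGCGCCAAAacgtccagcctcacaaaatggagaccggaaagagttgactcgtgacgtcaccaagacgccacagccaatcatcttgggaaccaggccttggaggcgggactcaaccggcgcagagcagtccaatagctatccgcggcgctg
Mcm6: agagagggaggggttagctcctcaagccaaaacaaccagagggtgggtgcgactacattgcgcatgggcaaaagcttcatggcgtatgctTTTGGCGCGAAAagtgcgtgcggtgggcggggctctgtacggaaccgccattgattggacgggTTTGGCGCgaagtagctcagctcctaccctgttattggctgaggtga

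The stage series shows how the share of RNA held by each licensing factor changed from the egg to the 16-cell stage. Stored and newly made RNA were not told apart. The helicase subunits Mcm2 and Mcm4 started high and fell by the late 2-cell stage. Mcm2 was at 25.4 to 32.0 copies per 100,000 in oocytes (median 27.8) and at 15.5 to 28.8 in zygotes (median 25.2). The E2C embryos held 23.8, 26.1, 25.6, 28.2 and 31.3, against 4.78 to 14.8 in L2C (median 7.88). No L2C embryo reached the lowest E2C embryo, and Mcm2 fell by 1.54 on the log2 scale (SE 0.32, limma adjusted p = 4.4e-05). It then stayed near that level, at 14.2, 0, 14.6, 17.7 and 14.1 in 4-cell embryos, 11.7, 9.64, 5.99 and 20.2 in 8-cell embryos, and 17.3, 12.4, 8.60 and 9.22 in 16-cell embryos. The 4-cell embryo at 0 had 2 cells with 25411 UMIs in all, a depth at which 3 UMIs make 11.8 copies per 100,000.

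Mcm4 was at 14.1 to 23.2 in oocytes (median 18.4) and 10.5 to 15.9 in zygotes (median 14.6), lower in zygotes by 0.40 on the log2 scale (SE 0.18, limma adjusted p = 0.13). The difference had the same sign within each of the 3 sequencing runs. Oocyte and zygote means were 18.4 (n = 5) and 13.5 (n = 4) in run 1, and 18.6 (n = 4) and 13.7 (n = 3) in run 3. Run 2 had 1 oocyte, at 22.5, and 2 zygotes with a mean of 14.1. E2C embryos were at 14.5, 7.42, 6.80, 6.82 and 8.09, and L2C embryos at 0 to 3.36 (median 1.65). The groups did not overlap, and the fall of 1.73 (SE 0.33, limma adjusted p = 1.1e-05) was the largest of the 10 genes at this step. The 0 is L2C embryo 1, a single cell of 17971 UMIs, where 3 UMIs make 16.7 copies per 100,000, so it cannot show a separation. The other L2C embryos held 2 to 4 Mcm4 UMIs. L2C embryo 1 also had 1 UMI of Mcm2, 2 each of Mcm6, Mcm7 and Cdt1, 3 of Pcna and 0 of Mcm3, Mcm5 and Cdc6. Mcm4 then rose by 1.21 from L2C to the 4-cell stage (SE 0.38, limma adjusted p = 0.058), where the 5 embryos held 3.32, 9.79, 3.03, 6.68 and 6.74. That call was lost without 4-cell embryo 4, without 4-cell embryo 5 and in the summed isoform table, in which gene levels are the sums of isoforms.

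Mcm3, Mcm5 and Mcm6 ran the other way. Mcm3 was at 0 to 1.39 in oocytes (median 0.576) and at 1.09, 1.24, 0.474, 2.07 and 1.63 in E2C embryos. In L2C it was at 0 to 9.94 (median 5.92), a rise of 1.31 (SE 0.43, limma adjusted p = 0.0069) with groups that overlapped through L2C embryo 1 at 0, a single cell of 17971 UMIs, and L2C embryo 3 at 0.790 from 1 UMI. By the 16-cell stage the embryos held 11.8, 8.98, 8.02 and 11.9, all above every oocyte.

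Mcm6 was at 0.974 to 5.42 in oocytes (median 2.58), and at 4.69, 3.87, 2.04, 4.82 and 5.96 in E2C. L2C embryos were at 8.65 to 17.4 (median 11.4), all above the highest E2C embryo, and Mcm6 rose by 1.39 (SE 0.39, limma adjusted p = 0.0020). The 4-cell embryos spread from 5.46 to 22.6. Of the 3 genes Mcm5 rose latest, at 1.95, 1.58, 3.06, 2.07 and 0.543 in E2C and 0 to 6.16 in L2C (median 1.43), a difference of 0.087 (SE 0.40, limma adjusted p = 0.87). Mcm5 stood at 6.36, 0, 1.52, 7.97 and 4.26 in 4-cell embryos, at 7.45, 5.48, 5.99 and 9.87 in 8-cell embryos, and at 15, 7.53, 15.5 and 18.2 in 16-cell embryos. No neighbouring pair of stages differed for Mcm5 by the limma test at an unadjusted p under 0.01, while the 16-cell embryos were all above the oocytes (0.553 to 2.50), with a rise of 2.62 (SE 0.32, limma adjusted p = 1.8e-10).

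Mcm7, which sits in the ring beside Mcm3, changed little. It was at 5.40 to 14.1 in oocytes, 3.65 to 8.64 in E2C, 7.18 to 12.2 in L2C and 6.34 to 9.97 in 16-cell embryos, and limma called it in no comparison of the gene table. The 4-cell embryos, at 16.1, 45.0, 19.7, 14.3 and 16.8, were all above those of the stages on either side, without passing the test (from L2C, 0.72, SE 0.36, limma adjusted p = 0.32). The summed isoform table did call this rise. The embryo at 45.0 rests on 6 UMIs.

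**Figure D1:**
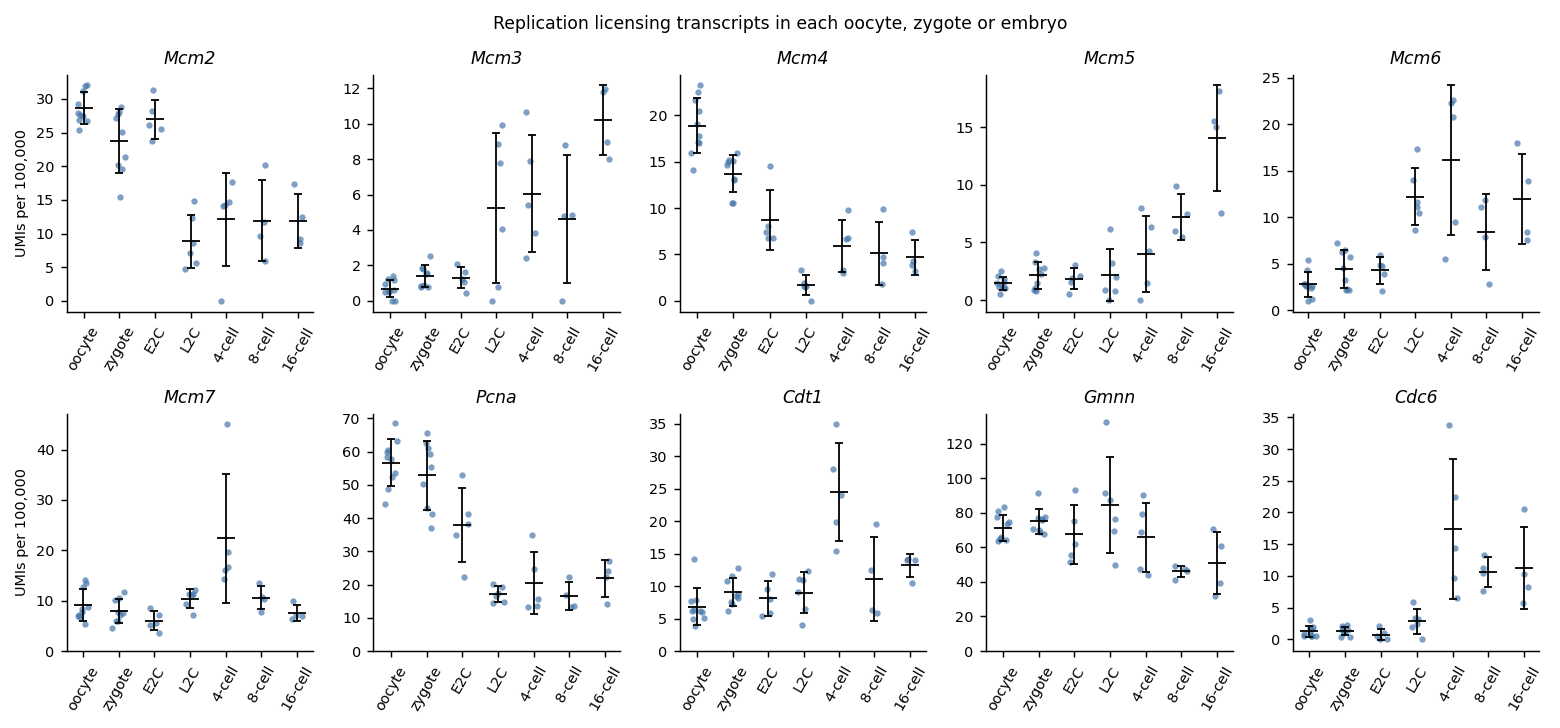
Levels of the 10 licensing genes by stage in copies per 100,000 UMIs, 1 panel per gene. Points are oocytes, zygotes or embryos up to the 16-cell stage, and bars give their mean and SD. Mcm2, Mcm4 and Pcna start high and drop at L2C, Mcm3, Mcm5 and Mcm6 climb from near 0, and Cdc6 and Cdt1 are highest at the 4-cell stage.

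Summed over the 6 genes, helicase RNA moved less than its parts. The sum was 61.5 ± 4.15 copies per 100,000 (SD, n = 10) in oocytes, 53.3 ± 4.75 (n = 9) in zygotes and 49.1 ± 4.59 (n = 5) in E2C. It was 40.6 ± 9.77 (n = 6) in L2C, 66.6 ± 13.4 (n = 5) at the 4-cell, 47.8 ± 16.8 (n = 4) at the 8-cell and 60.4 ± 9.71 (n = 4) at the 16-cell stage. The make-up of that sum turned over between E2C and L2C. Mcm2 and Mcm4 together held 77.3 ± 4.57% of helicase UMIs in oocytes and 71.3 ± 3.70% in E2C, but 24.7 ± 5.06% in L2C and 27.7 ± 9.61% in 16-cell embryos. Mcm3, Mcm5 and Mcm6 together held 7.91 ± 2.97% in oocytes, 16.4 ± 2.79% in E2C, 48.0 ± 5.46% in L2C and 59.8 ± 9.55% in 16-cell embryos. The share of Mcm2 and Mcm4 was 65.2 to 74.4% in the 5 E2C embryos and 19.5 to 32.7% in the 6 L2C embryos, so the groups were far apart. These 2 sets of genes were drawn up after their values were seen, and no test is given for them.

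**Figure D2:**
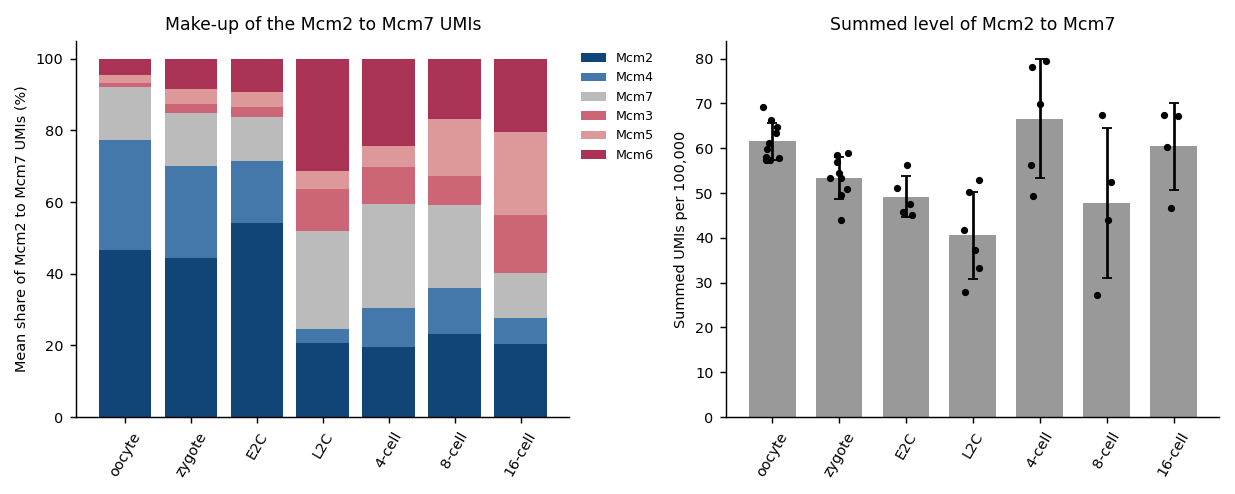
Share of Mcm2 to Mcm7 UMIs held by each of the 6 genes, as the percent mean over oocytes, zygotes or embryos of a stage (n = 10, 9, 5, 6, 5, 4 and 4). Mcm2 and Mcm4 make up 77.3% in oocytes and 24.7% in L2C.

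The loading factors had their highest mean level at the 4-cell stage, with no fall after it called by limma. Cdc6, the ATPase that recruits Cdt1 and the helicase to origins, was at 0.487 to 3.09 in oocytes (median 1.02), and at 0.547, 1.05, 0, 2.07 and 0 in E2C embryos. It reached 0 to 5.97 in L2C (median 2.88), a rise of 1.30 (SE 0.41, limma adjusted p = 0.0057). The 4-cell embryos held 9.62, 22.5, 6.45, 33.8 and 14.3, all above the L2C embryos, a rise of 2.09 (SE 0.47, limma adjusted p = 0.0060). The values of 22.5 (embryo 2) and 6.45 (embryo 3) rest on 3 and 4 UMIs. Cdc6 was then at 10.5, 11.3, 7.58 and 13.3 in 8-cell embryos and at 8.32, 5.78, 10.3 and 20.5 in 16-cell embryos, so that these stages overlapped with the 4-cell stage. From the 4-cell to the 8-cell stage the difference was -0.50 (SE 0.44, limma adjusted p = 0.54). Cdc6 values in the oocyte, zygote and E2C rest on 26, 34 and 7 UMIs in all.

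Cdt1, the protein that carries the helicase to the origin, was at 3.92 to 14.2 in oocytes (median 6.14), 5.34, 9.54, 8.01, 5.92 and 11.9 in E2C and 3.97 to 12.3 in L2C (median 10.1). It was at 19.9, 35, 24.0, 28.1 and 15.4 in 4-cell embryos, where the value of 35 (embryo 2) rests on 5 UMIs. All 5 were above the L2C embryos, and Cdt1 rose by 1.33 (SE 0.39, limma adjusted p = 0.037). The 8-cell embryos, at 6.33, 12.5, 5.84 and 19.6, overlapped with them, and the difference of -0.96 (SE 0.37, limma adjusted p = 0.066) missed the threshold.

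Geminin RNA was abundant throughout. It was at 63.8 to 83.5 in oocytes (median 69.9), at 67.7 to 91.2 in zygotes (median 76.1) and at 50.1 to 132 in L2C (median 81.9). The 4-cell embryos held 79.1, 44.1, 90.1, 68.7 and 47.3 and the 16-cell embryos 39.6, 32.1, 70.8 and 60.7. limma called it in no comparison, the 16-cell stage being below the oocyte by 0.69 (SE 0.20, adjusted p = 0.0017), short of the 1 required, while DESeq2 on the recovered UMIs called that fall. Set against Cdt1 in the same embryo, the ratio of Gmnn to Cdt1 copies was 11.7 ± 4.18 (SD, n = 10) in oocytes, 8.84 ± 3.10 (n = 5) in E2C and 11 ± 6.44 (n = 6) in L2C. It was 1.26 to 3.98 in the 5 4-cell embryos, below every L2C embryo (4.50 to 22.1), and 3.8 ± 1.04 (n = 4) at the 16-cell stage. The L2C value of 4.50 rests on 9 Gmnn and 2 Cdt1 UMIs (embryo 1). The 4-cell value of 1.26 rests on 18 and 5 (embryo 2), so the gap between the groups is uncertain. The ratio was chosen after the levels were seen and was given no test.

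Pcna followed Mcm2 and Mcm4. It was at 44.2 to 68.5 in oocytes (median 58.1), 37.1 to 65.6 in zygotes (median 55.4), and 53.0, 41.1, 38.2, 34.9 and 22.2 in E2C embryos. L2C embryos were at 14.6 to 20.2 (median 17.0), all below the lowest E2C embryo, and Pcna fell by 1.09 (SE 0.28, limma adjusted p = 0.00061), a call that was lost without E2C embryo 1. From L2C to the 16-cell stage no step called it, and the 16-cell embryos held 27.0, 14.1, 24.1 and 22.2. The mouse genome holds the processed copies Pcna-ps1 and Pcna-ps2, so read sharing with them remains uncertain.

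Read across the whole list, the steps differed in how many members passed the test. A gene was called where its log2 difference exceeded 1 in size with a limma p under 0.01 before adjustment. From oocyte to zygote limma called none of the 10 members, against 2.92% of all tested genes higher and 0.325% lower; 4 members had an unadjusted p under 0.05 with limma, 0 with edgeR and 2 with DESeq2. From zygote to E2C limma again called none, against 4.52% higher and 2.75% lower, with 2, 3 and 2 members at an unadjusted p under 0.05 by limma, edgeR and DESeq2. Mcm4 came nearest, lower by 0.65 (SE 0.24, limma adjusted p = 0.057).

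From E2C to L2C 3 members rose (Mcm3, Mcm6 and Cdc6) and 3 fell (Mcm2, Mcm4 and Pcna), where 25.6% of all genes rose and 22.8% fell. The share of members that moved was therefore near that of genes at large. edgeR and DESeq2 on the recovered UMIs called 4 of the 6, without Cdc6 and Mcm6. Leaving out E2C embryo 3 lost Cdc6 and Mcm3. From L2C to the 4-cell stage 3 members rose (Cdc6, Cdt1 and Mcm4) and 0 fell, against 2.41% of genes higher and 4.28% lower, and edgeR and DESeq2 made the same 3 calls. The summed isoform table called Mcm7 in place of Mcm4.

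From the 4-cell to the 8-cell stage limma called no member, against 4.47% of genes higher and 10.5% lower, with 1 member at an unadjusted p under 0.05 by each of limma, edgeR and DESeq2. From the 8-cell to the 16-cell stage limma also called none, against 1.9% higher and 1.46% lower. Here 1 member, Mcm3, had an unadjusted p under 0.05 with limma (higher by 1.02, SE 0.43, adjusted p = 0.31), 0 with edgeR and 1 with DESeq2. Between oocytes and 16-cell embryos 4 members were higher (Mcm3 by 2.83, Mcm5 by 2.62, Cdc6 by 2.19 and Mcm6 by 1.60) and 3 lower (Mcm2 by 1.04, Pcna by 1.26 and Mcm4 by 1.60), against 26.8% of genes higher and 24% lower. None of the 7 overlapped between the groups. They had already been called by the size of that difference, and the share of all genes without overlap was not counted. The call of Mcm2 was lost without 16-cell embryo 3 or 16-cell embryo 4.

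In single cells of the later stages, Mcm2 had a median of 20.1 copies per 100,000 at the 32-cell stage (0 to 43.7, 22 cells), 21.5 in blastocysts (3.56 to 33.6, 13 cells) and 20.0 in mESC (8.80 to 21.5, 5 cells). Mcm6 had medians of 7.96, 7.45 and 43, and its mESC range of 26.4 to 65.5 lay above every blastocyst cell (2.29 to 19.5). Mcm5 had medians of 18.7, 15.1 and 35.2. The summed helicase level had medians of 81.6, 67.9 and 168, and the 5 mESC cells ran from 119 to 224 while blastocyst cells ran from 45.4 to 120. Gmnn had medians of 33.4, 37.5 and 25.8 and Cdc6 of 5.67, 5.65 and 3.99, with wide overlap. These cells have no named embryo and may share one, and mESC are a cultured line.

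The spread between cells of 1 embryo was set against what counting alone gives. Over 27 gene and stage pairs with at least 10 degrees of freedom, the variance between sister cells was 1.32 times the Poisson value at the median, from 0.937 (Mcm5, 16-cell) to 2.32 (Mcm3, 4-cell), and 2 pairs were over 2. The other of these was Mcm2 at the 8-cell stage (2.22). Mcm2 in E2C, at 2.45, had 5 degrees of freedom and was left out. The ratio was given no test, and with few UMIs per cell it could miss differences between cells.

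Of the 82 other genes of the replication pathway, listed by role, 79 could be tested. Their calls were 1 higher and 0 lower from oocyte to zygote, 3 and 2 to E2C, 18 and 15 to L2C, 3 and 4 to the 4-cell stage, 3 and 14 to the 8-cell stage, and 1 and 1 to the 16-cell stage. Of all tested genes, 2.92% and 0.325% were so called in the zygote, 4.52% and 2.75% in E2C, and 25.6% and 22.8% in L2C. The later steps had 2.41% and 4.28%, 4.47% and 10.5%, and 1.9% and 1.46%. At L2C neither share of the pathway genes was above that of genes at large. Their median log2 difference from E2C to L2C was -0.13, against 0.027 over all genes. Rises at L2C included Ccne1, the cyclin E that activates Cdk2 at the start of S phase, from 0.778 ± 0.813 (SD, n = 5) to 29.7 ± 11.6 (n = 6), and Gins4, a subunit of the active helicase, from 6.67 ± 2.67 to 15.7 ± 5.99, a call lost in 6 of 13 alternatives, edgeR and DESeq2 among them. The single-strand binding protein RPA split: Rpa2 rose from 1.42 ± 0.708 to 24.5 ± 11.6 and Rpa3 fell from 99.3 ± 12.5 to 9.85 ± 6.44, a log2 difference of 3.33 (SE 0.38) for one and -3.56 (SE 0.28) for the other. Asf1a, a histone chaperone, and E2f5, an E2F factor, fell by 3.45 and 3.21.

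Of 6 genes of the origin recognition complex, the platform for licensing, 0 were called higher and 2 lower (Orc5 and Orc6) at L2C, and 1 was higher and 4 were lower in 16-cell embryos than in oocytes. Of 10 helicase activators, 4 were higher (Gins1, Gins3, Gins4 and Recql4) and 1 lower (Mtbp) at L2C, where 25.6% of all genes were called higher and 22.8% lower. At the step to the 4-cell stage Rrm2, of the enzyme that makes deoxynucleotides, rose from 18.7 ± 6.45 to 38.4 ± 16.0, and Pole3, a subunit of a replicative polymerase, from 11.1 ± 4.94 to 20.6 ± 8.29. Dbf4, the activator of the kinase Cdc7, fell from 35.4 ± 10.5 to 15.7 ± 5.83, and the E2F factors E2f4 and E2f1 fell by 1.30 and 1.13. These 5 calls rest on the unadjusted p: the limma adjusted p was 0.073 for Rrm2, 0.090 for Pole3, 0.050 for Dbf4, 0.051 for E2f4 and 0.12 for E2f1. The calls were lost in 5 of 13 alternatives for Rrm2, 9 of 13 for Pole3, 3 of 13 each for Dbf4 and E2f4, and 9 of 12 for E2f1. At the step to the 8-cell stage Cdc45, a subunit of the active helicase, fell from 35 ± 14.1 (n = 5) to 9.40 ± 1.62 (n = 4), Pole4 by 1.60 and cyclin A2 (Ccna2) by 1.53, while Tyms, which makes thymidylate, rose from 8.17 ± 7.66 to 30.3 ± 4.28. Of 7 genes of nucleotide supply, 5 were higher and 1, Rrm2b, was lower in 16-cell embryos than in oocytes, against 26.8% and 24% of all genes. Between these stages the largest rises with at least 10 copies per 100,000 were of Tyms (3.88), Rpa2 (3.42) and Fen1 (2.95), a nuclease of lagging-strand synthesis, and the largest falls of E2f5, Rpa3 and Rrm2b (-3.53, -3.33 and -3.07).

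No gene followed the summed helicase level closely. The 5 with the highest Pearson r over the 43 oocytes, zygotes and embryos were Kif20a (0.66), Tars (0.63), Ufm1 (0.63), Snrpd3 (0.63) and Spcs2 (0.62), points that share stage and depth. Between members, Mcm4 and Pcna had r = 0.82, Mcm6 and Pcna -0.80, Mcm3 and Cdc6 0.72, and Mcm2 and Mcm6 -0.66.

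Full-length reads also gave the form of each transcript. Of the 143 isoforms, 28 were full splice matches (FSM, every junction of an annotated transcript), 105 were incomplete splice matches (ISM, a run of those junctions) and 10 fell in other classes. Isoform levels below are per 100,000 isoform UMIs of a cell and cannot be set against gene levels. For the comparison by form, an embryo entered with at least 5 isoform UMIs of the gene, and the oocytes and zygotes together (up to 19) were compared with the embryos from L2C to the 16-cell stage (up to 19) by a two-sided permutation test of the means, over 24 measures of 8 genes with adjustment over them.

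Mcm2 reads of oocytes and zygotes were mostly assigned to short isoforms, and whether these represent whole RNA molecules was not tested. The FSM share was 4.26 ± 5.43% (SD, n = 19) in oocytes and zygotes and 28.6 ± 20.8% (n = 15) in the later embryos (permutation test, adjusted p = 0.00032), and the mean isoform length rose from 1334 ± 250 to 2109 ± 473 bases (adjusted p = 0.00012, from the smallest p the resampling can give, 2e-05). Its isoform with the most UMIs, PB.63156.7, was an ISM of 2 exons and 817 bases at chr6:88883452-88884533, the 3′ end of a gene whose annotated transcript has 16 exons and 3371 bases. It was at 3.92 to 23.3 in oocytes and at 6.07, 6.73, 7.21, 5.23 and 13.4 in E2C, but at 0 to 4.21 in L2C, and fell by 2.15 (SE 0.51, limma adjusted p = 0.00063). Isoforms that span the annotated coding sequence made up 5% of 460 Mcm2 UMIs in oocytes, 40% of 65 at the 4-cell stage, 6.59% of 91 at the 32-cell stage and 75% of 16 in mESC.

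Cdt1 and Mcm4 differed in the same way. The FSM share of Cdt1 was 21.3 ± 13.2% (n = 17) early and 54.3 ± 25.8% (n = 15) later (permutation test, adjusted p = 0.00012), and its mean isoform length 1520 ± 234 and 2088 ± 455 bases. Its 10-exon FSM of 2799 bases, PB.73956.4, rose at the 4-cell stage, with 0 to 4.95 in L2C and 2.95 to 38.6 in 4-cell embryos. For Mcm4 the FSM share was 18.8 ± 13.9% (n = 19) and 49.7 ± 33.4% (n = 6, permutation test, adjusted p = 0.026), and length 1999 ± 343 and 2703 ± 849 bases. The Mcm4 differences did not pass the test with at least 10 isoform UMIs per embryo or with zygotes left out.

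Geminin passed no test of form, with an FSM share of 90.6 ± 2.28% (n = 19) and 92.4 ± 4.09% (n = 19, permutation test, adjusted p = 0.16). The comparisons of Mcm5, Mcm6 and Mcm7 did not pass the test either, and Mcm3 and Cdc6 had 1 early embryo each with enough UMIs. Over all isoforms the FSM share was 73.6 ± 1.11% and 79.5 ± 3.44% in the same groups, while mean length moved the other way, from 1403 ± 72.6 to 1302 ± 89.9 bases. The FSM class does not always mean a whole message: the most abundant Mcm3 isoform, PB.454.84, was an FSM of 1 exon and 913 bases. At the 32-cell stage coding-spanning shares were low for each helicase gene (6.59 to 19.6%) and 85.2% for Gmnn, and the mean length over all isoforms was also lowest there (median 1118 bases).

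**Figure D3:**
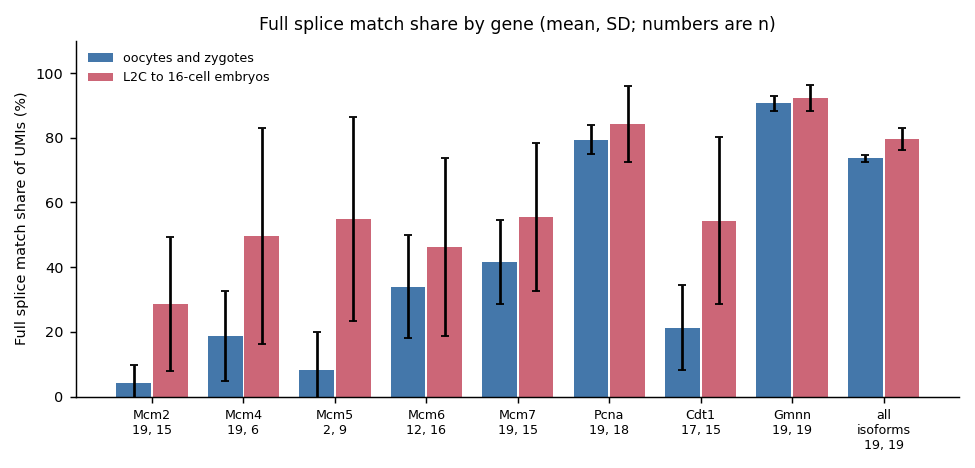
Full splice match share in percent, by oocyte, zygote or embryo, for the licensing genes with more than 1 early embryo of at least 5 isoform UMIs and for all isoforms together. Mcm2, Mcm4 and Cdt1 are low in oocytes and zygotes and higher with a wide spread from L2C on, while Gmnn stays near 90%.

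By isoform, 75 of the 143 passed the filter and 17 were called in at least 1 step. The counts were 0 from oocyte to zygote, where limma gave 7 and edgeR 5 isoforms at an unadjusted p under 0.05 and 1.48% of all 29409 isoforms were called, 3 from zygote to E2C (5.18% of all), 6 from E2C to L2C (26%), 7 from L2C to the 4-cell stage (4.29%), 2 to the 8-cell stage (7.93%) and 2 to the 16-cell stage (1.97%). The 3 from zygote to E2C included the 15-exon FSM of Mcm7, PB.60053.1, which was lower in every E2C embryo (0 to 0.834) than in any zygote (1.75 to 5.27, limma adjusted p = 0.013) and rose again from L2C (0 to 8.08) to the 4-cell stage (5.02 to 25.7, adjusted p = 0.016). The step to the 4-cell stage also raised the full-length Mcm4 form PB.29148.13, at 0 in all 6 L2C embryos and at 1.19 to 4.29 in 4-cell embryos (limma adjusted p = 0.082).

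Pcna changed its 3′ end. Of its 17 isoforms, 15 ended at 3 places on chromosome 2, most often 452, 348 and 221 bases after the stop codon (132249164, 132249268 and 132249395), called here the annotated, the middle and the short end. The other 2 isoforms ended elsewhere and held 17 of 2835 Pcna isoform UMIs, at most 10.5% in any embryo shown. The sequences shown are the last 30 bases up to the first of the positions grouped as an end. They are taken from the GENCODE transcript Pcna-201 (GRCm38, minus strand), with the hexamer AATAAA in capitals. They lie at chr2:132249164-132249193, chr2:132249294-132249323 and chr2:132249396-132249425.
annotated end: AATAAAaaaatgtttctcttgagtttatgt
middle end: ttgttcaatttaAATAAAgttaacaatttg
short end: ctccaaagtaaaaactagttttgttaacat
Neither AATAAA nor ATTAAA was among the 30 bases before the short end. Only these 2 hexamers were searched for, so the short end may hold another form. For the middle end, the first position, 132249294, is not the most used one, 132249268. AATAAA ends 12 bases before the first and lies further from the most used. The 30 bases before the most used middle position were not searched, so the ends cannot be compared by this hexamer. Of the 20 bases after the most used position of the middle and of the short end, 6 were A in each.

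The middle end held 96.3 ± 2.19% of Pcna isoform UMIs in oocytes (SD, n = 10), 96.3 ± 2.14% in zygotes (n = 9), 90.2 ± 5.01% in E2C (n = 5) and 48.4 ± 8.25% in L2C (n = 5). The short end held 0 to 2.61% in oocytes, 0 to 2.68% in zygotes and 0, 2.38, 3.23, 0 and 4.17% in E2C embryos. In L2C it held 42.1, 50, 47.4, 46.7 and 50% in the 5 embryos with at least 5 isoform UMIs. No embryo of the earlier stages came near any L2C embryo. The short end then held 20.0, 50, 44.4, 28.6 and 50% at the 4-cell stage, 32.6, 16.0, 37.5 and 32.1% at the 8-cell stage and 32.0, 37.5, 43.8 and 14.3% at the 16-cell stage. It was 36.8% of 136 UMIs at the 32-cell stage and 32.4% of 139 in blastocysts (exact 95% intervals 28.7 to 45.5% and 24.7 to 40.8%, counting error only). In mESC it was 1 of 29 UMIs, or 3.45% (0.0873 to 17.8%).

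As single isoforms, both ends passed the test. The 6-exon FSM with the middle end, PB.44012.93, fell from 27.4 ± 10.1 (n = 5) in E2C to 3.89 ± 3.05 (n = 6) in L2C, by 2.58 (SE 0.45, limma adjusted p = 5.2e-06). The 6-exon FSM with the short end, PB.44012.145, rose from 0.312 ± 0.429 to 6.54 ± 3.69, by 2.56 (SE 0.47, limma adjusted p = 1.2e-05). Both forms span the coding sequence. The grouping by end was made after the isoform values were seen, and it has no test of its own.

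Oocyte libraries of the fourth sequencing run, deposited as isoform UMI counts of intact oocytes and of parts of oocytes, gave the same low short end, with 0 to 2.63% in 16 libraries. Their annotated end, however, held 40.8 to 55.2%, against 0.893 to 5.22% in the oocytes of the other runs, so the balance of the annotated and the middle end differed between runs within 1 stage. Member levels differed too, on the scale of isoform UMIs and between tables made separately. Gmnn had a median of 38.7 in the 16 libraries (26.2 to 48.8) and 99.4 in the 10 oocytes of the other runs (80.7 to 115), and Mcm2 of 77.5 (55.2 to 108) and 34.3 (24.8 to 39.8), in each case with no overlap. Mcm4 had medians of 36.3 and 17.9 and Cdt1 of 9.62 and 5.75, with overlap, while Pcna was at 71.9 and 75.9. Differences of this size between libraries of 1 stage stand beside the stage differences above, and their part in those was not tested. The sequencing run of each embryo after the zygote is not known here, and the oocyte holds C57BL/6J RNA only whereas the embryo also has a DBA/2 genome and mESC are of another line. For the 3′ end of Pcna, stage and paternal genome cannot be told apart here.

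**Figure D4:**
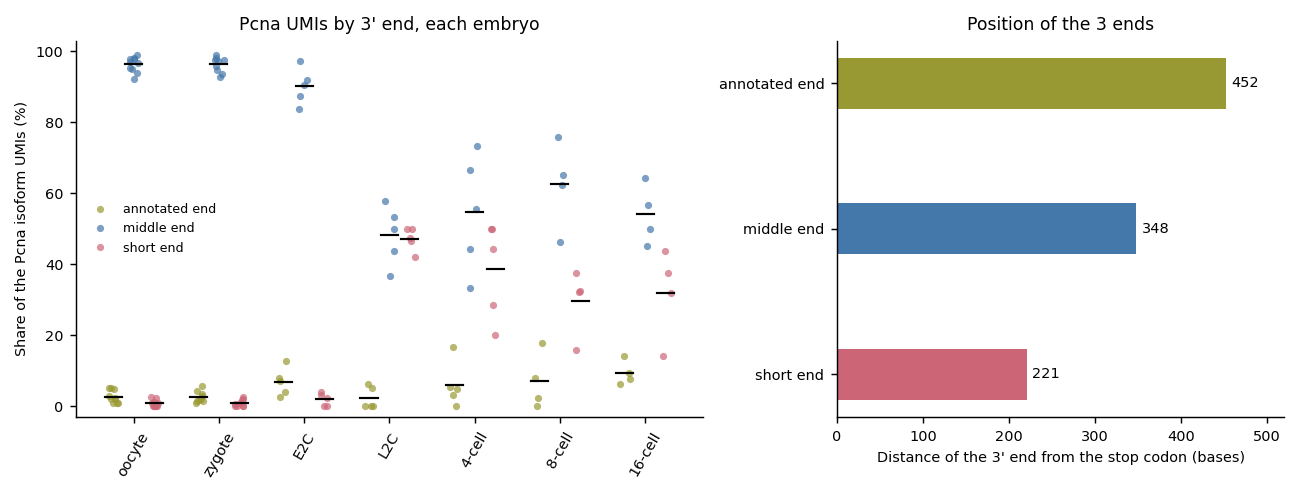
Share in percent of Pcna isoform UMIs at the annotated, middle and short 3′ end for each oocyte, zygote and embryo with at least 5 isoform UMIs, and the distance of the 3 ends from the stop codon in bases. The short end is at most 4.17% up to E2C and 42.1 to 50% in L2C.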

How the data were processed

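Per the labels and the study's methods, the authors read barcodes and UMIs from PacBio HiFi reads, mapped them to mm10 and classified isoforms with SQANTI3. The authors deposited gene and isoform tables as values of the CPM kind, UMIs of a cell divided by its total and scaled to 100,000, in which 100% of non-zero values were whole multiples of 1 UMI within a tolerance of 0.1. For 3 stages (E2C, L2C, 4-cell) the deposited values are listed as a score but have the unit of the rest. The fourth run was deposited by the authors as isoform UMI counts. No column was left unused.

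Cells were averaged per oocyte, zygote or embryo. Genes or isoforms at 1 copy per 100,000 or more in at least 4 of the 43 were kept, and log2(value + 1) was fitted once over 7 stages with limma 3.58.1 (trend and array weights, R 4.3.3), two-sided, with Benjamini-Hochberg adjustment over all features tested. Fold changes are on that log2 scale, which understates changes of low genes. edgeR 4.0.16 and DESeq2 1.42.0 on UMIs recovered from the tables were alternatives. Make-up was tested with 100000 resamples (scipy 1.17.1). In simulated counts with 200 genes changed 4-fold, limma recovered 97% for E2C to L2C (11113 genes, 1.27% of unchanged genes called) and 96.5% for the 4-cell to the 8-cell stage (11139 genes, 1.07%). The changed genes were drawn from the more abundant ones, with counts made for whole embryos at a fixed spread. Recovery at levels as low as those of Mcm3, Mcm5 and Cdc6 in E2C was not tested.

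The members and lists were chosen with earlier results of these data known. Beyond the members, the genes named were, for each step, the called genes of the pathway list that rose most and fell most, at most 3 each, at 10 copies per 100,000 or more in the higher stage, plus the 5 most like the summed helicase level. Isoforms named were the one with the most UMIs of each member and up to 2 others called. Other genes and counts in the pathway account were named after their values were seen. Nothing says whether embryos came from separate females, so p-values measure the spread between these embryos. Positions are on GRCm38 (mm10).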

Additional observations from a re-analysis of the deposited data

Results flagged for a closer look

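Of 70 groups of 4 to 10 oocytes, zygotes or embryos (10 genes at 7 stages), 6 held 1 value that stood apart from the rest by Dixon's 95% criterion, which chance meets in about 1 in 20 groups. At the 4-cell stage both came from embryo 2, represented by 2 cells with 25411 UMIs: Mcm2 at 0 copies per 100,000, the others being at 14.1 to 17.7, and Mcm7 at 45.0 from 6 UMIs, the others being at 14.3 to 19.7. In E2C embryo 1 Mcm4 was at 14.5 from 24 UMIs, where the others were at 6.80 to 8.09. Cdt1 was at 14.2 in oocyte 6, the only oocyte of sequencing run 2, against 3.92 to 7.79 in the others, and at 10.5 in 16-cell embryo 2, whose 15 cells gave 57 UMIs, against 14.1 to 14.2. Gmnn was at 91.2 in zygote 3, against 67.7 to 77.5 in the others.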

How the results depend on the processing

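The log2 fold changes named in the text kept their sign under every alternative run, 595 on the same side of the threshold and 102 no longer past it. Of the counts of members called, that from the 4-cell to the 8-cell stage became 1 (Cdt1) without array weights and 1 from the summed isoform table. Leaving out 1 embryo at a time gave 0 to 1 there (1 without 4-cell embryo 5 or 8-cell embryo 4) and 0 to 1 from the 8-cell to the 16-cell stage (Mcm3, without 8-cell embryo 4), 4 to 6 from E2C to L2C, 2 to 3 to the 4-cell stage and 6 to 8 between oocytes and 16-cell embryos. DESeq2 added Gmnn between oocytes and 16-cell embryos, and the summed isoform table exchanged Mcm4 for Mcm7 at the step to the 4-cell stage. The E2C to L2C call of Mcm3 was lost without array weights and without the filter. Member isoforms called numbered, at an adjusted p under 0.05, 1 from zygote to E2C, 4 to the 4-cell, 1 to the 8-cell and 1 to the 16-cell stage, by edgeR 0 to the 8-cell and 1 to the 16-cell stage, with a pseudocount of 0.5 5 from zygote to E2C, and without array weights 10 from E2C to L2C. Without 1 embryo they ran from 2 to 11 at the step to the 4-cell stage (11, 2 and 3 without 4-cell embryos 1, 4 and 5) and from 0 to 3 at the step to the 8-cell stage (0 without 4-cell embryo 4, and 1 without 4-cell embryo 2, 3 or 5 or 8-cell embryo 2 or 3). With at least 10 isoform UMIs the Mcm4 length difference reversed to -26.2 bases (adjusted p = 0.92), as fewer embryos remained. Against limma, edgeR moved the median of all genes from E2C to L2C by -0.17 and DESeq2 by -0.25. The causes of these shifts were not tested. With sequencing run as a block, which is known for oocytes and zygotes only, limma still called 0 members between them. No paired analysis was possible for the other steps because the labels put all 4 runs in 1 group. Depth limits low genes: 3 UMIs made up to 16.7 copies per 100,000 in the shallowest embryo.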
